A study of Mus musculus with 6 samples.

Results

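Skeletal muscle genes were followed in the prostates of 4-week-old mice: 35 named genes of the contractile apparatus, calcium handling and energy supply of striated muscle, out of 19938 genes with a probe set of their own. The members were the listed genes themselves, and each was read from its brightest probe set, by the mean of the 6 arrays, among those annotated to that gene alone. All 35 were measured. The study compared 3 mice carrying an AR3 transgene with 3 wild-type littermates, 1 Affymetrix array per mouse and 1 whole dissected prostate per array. AR3 is a splice form of the androgen receptor that lacks the ligand-binding domain. The promoter that drives the transgene is not given in the sources used here. Per the labels each array is a different mouse.

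Striated muscle contracts when calcium released from the sarcoplasmic reticulum binds troponin on the actin filament and lets myosin pull on it, within repeating units bounded by Z-discs. Fast fibres and slow fibres use different myosins, light chains and troponins, so the genes below come largely in fast and slow pairs. The prostate itself is an epithelium wrapped in smooth muscle, which uses other actin and myosin genes. Striated muscle lies next to it, in the urethral sphincter and the pelvic floor, and can be carried along in dissection.

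Most of the 35 genes lay at or near background, and the brightest, Acta1, Tnnt1, Tnnc2 and Eno3, were above it in all 6 prostates. No detection calls were used. Background was instead read from the 1035 probe sets of olfactory receptors, whose 95th percentile of intensity was between 66.9 and 91.9 on the 6 arrays. Probes differ in brightness, so this scale is approximate. Of the 35 genes, 13 exceeded it on all 6 arrays, 13 on 1 to 5 arrays and 9 on none, while 57.1% of all 19938 genes exceeded it on all 6. Against the 99th percentile of the same probe sets, 118.3 to 157.3, only Acta1, Tnnt1, Tnnc2 and Eno3 exceeded it on all 6 arrays. Over all genes, 40.5% did so. Myot exceeded it in the 3 AR3 transgenic mice. By mean intensity, 27 of the 35 genes lay below the median gene and 1, Acta1, among the brightest 10% of genes. Among genes of the thick filament and the sarcomere scaffold, none exceeded the 95th percentile scale on all 6 arrays. These were 4 myosin heavy chains, 4 myosin light chains, 2 myosin-binding proteins and 2 giant proteins. Of the 6 troponins, 5 exceeded it on all 6 arrays. So did all 4 energy and oxygen genes, 2 of 6 calcium genes and 1 of 6 Z-disc genes. Falling short of this scale does not show absence. The median olfactory receptor probe set lay lower, at 25.9 to 30.9 on the 6 arrays. The myosin heavy chains ran from 54.5 to 101.8, the myosin-binding proteins from 61.1 to 105.2 and the giant proteins from 37.8 to 84.0. The light chains ran from 13.0 to 86.0. Whether the label of the list, adjoining striated muscle, holds for these genes was not tested. In whole tissue, fewer cells of a type and less RNA per cell cannot be told apart.

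**Figure D1:**
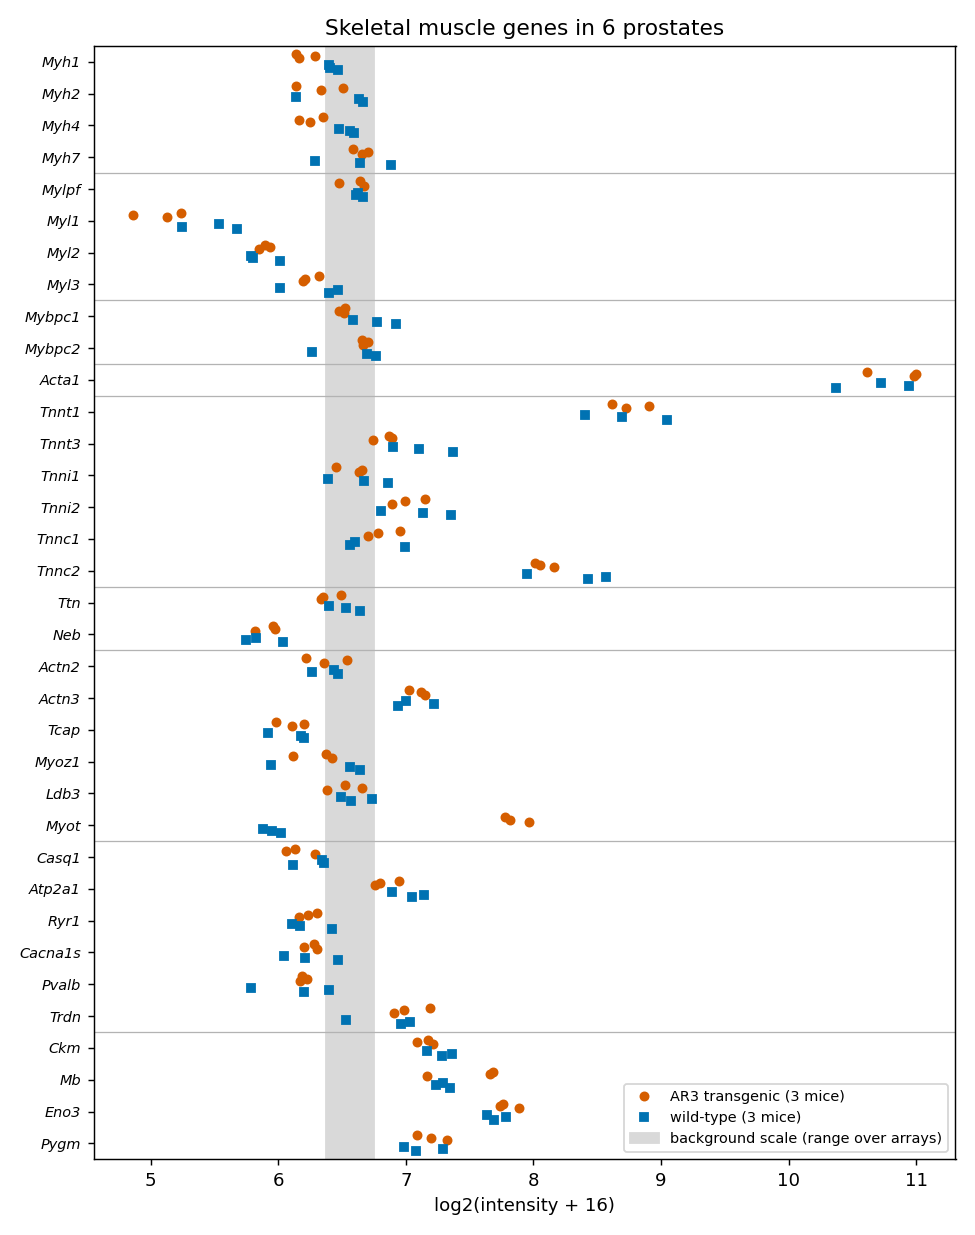
The plot of the 35 genes by mouse gives log2(intensity + 16) on the horizontal axis, with 1 circle per AR3 transgenic mouse and 1 square per wild-type mouse, and genes grouped by role from myosin heavy chains at the top to energy supply at the bottom. The grey band is the 95th percentile of the olfactory receptor probe sets over the 6 arrays, 66.9 to 91.9 in intensity. Most genes lie in or near the band, Acta1 lies far to the right, and Myot is the gene whose circles and squares lie far apart.

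Acta1, the actin of adult skeletal muscle thin filaments, was the brightest member. Its intensity was 1553, 2035 and 2011 in AR3 transgenic mice 1, 2 and 3, against 1680, 1954 and 1307 in wild-type mice 1, 2 and 3. The genotypes overlapped, and AR3 transgenic mouse 1 with wild-type mice 1 and 3 were the 3 lowest. The log2 change was 0.19 ± 0.17 (SE, n = 3 each), with a 95% interval from -0.20 to 0.57 and an adjusted p of 0.71 in limma. The same 3 mice were the lowest for 9 of 12 smooth muscle genes and for 3 of the 35 skeletal muscle genes (Acta1 included). They were also the lowest for 7 of 55 other adult striated muscle genes (12.7%) and for 4.58% of all genes. Among the smooth muscle genes, the smooth muscle actin Acta2 had 5121, 6530 and 6757 in AR3 transgenic mice 1, 2 and 3, against 5235, 6080 and 5156 in wild-type mice 1, 2 and 3. The enteric smooth muscle actin Actg2 had 1061, 1488 and 1614 in AR3 transgenic mice, against 1156, 1535 and 1303 in wild-type mice. Acta1 and both smooth muscle actins were thus high in the same 3 mice, AR3 transgenic mice 2 and 3 and wild-type mouse 2. In wild-type mouse 3 they parted: Acta1 lay 0.40 below its own mean of 6 on the log2 scale, and the 12 smooth muscle genes lay between 0.18 below and 0.09 above theirs. Whether RNA of the closely related actin genes reached the Acta1 probes was not tested, since probe sequences were not used here.

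**Figure D2:**
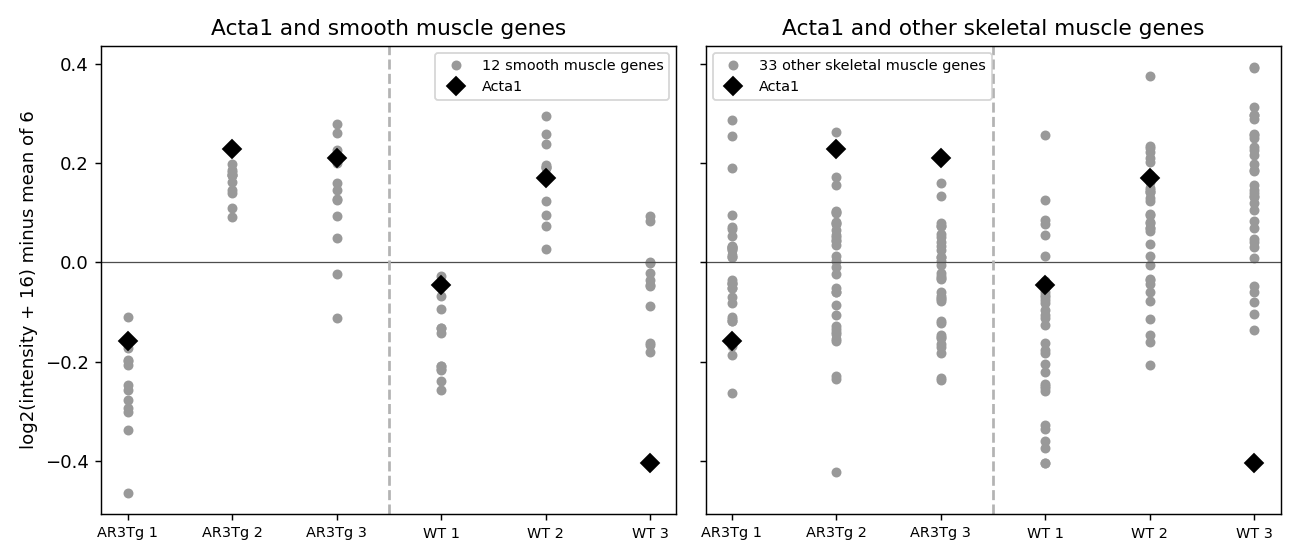
Each panel plots log2(intensity + 16) minus that gene's own mean over the 6 mice, with AR3 transgenic mice left of the dashed line and wild-type mice right of it. Diamonds are Acta1, and grey points are the 12 smooth muscle genes at left and the 33 members other than Acta1 and Myot at right. Acta1 sits inside the spread of the smooth muscle genes in 5 mice and below it in wild-type mouse 3, where most skeletal muscle genes lie above 0. At right, Acta1 lies above the spread of the 33 members in AR3 transgenic mouse 3 and below it in wild-type mouse 3. In the other mice it lies inside that spread too.

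The promoters of 3 members are shown because they are the brightest gene, the brightest troponin and the classical muscle marker Ckm. Each runs from 250 bases before to 50 after the annotated start in RefSeq, build GRCm38.p6. Capitals mark the CArG box, which binds serum response factor, the E-box CANNTG, which binds myogenic helix-loop-helix factors, and the TATA box TATAAA, searched on both strands together with the MEF2 box.
Acta1, chr8:123894726-123895025, minus strand: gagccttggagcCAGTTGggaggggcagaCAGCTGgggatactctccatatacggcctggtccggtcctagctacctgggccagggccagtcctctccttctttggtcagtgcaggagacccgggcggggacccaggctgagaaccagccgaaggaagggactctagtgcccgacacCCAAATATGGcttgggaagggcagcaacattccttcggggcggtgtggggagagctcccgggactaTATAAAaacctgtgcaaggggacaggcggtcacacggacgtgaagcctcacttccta
Tnnt1, chr7:4515926-4516225, minus strand: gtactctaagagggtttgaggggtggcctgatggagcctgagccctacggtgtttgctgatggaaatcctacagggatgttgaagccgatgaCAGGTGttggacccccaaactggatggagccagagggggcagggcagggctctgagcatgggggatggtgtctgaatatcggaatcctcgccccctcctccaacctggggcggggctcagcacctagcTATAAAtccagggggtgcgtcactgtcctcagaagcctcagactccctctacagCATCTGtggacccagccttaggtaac
Ckm, chr7:19410844-19411143, plus strand: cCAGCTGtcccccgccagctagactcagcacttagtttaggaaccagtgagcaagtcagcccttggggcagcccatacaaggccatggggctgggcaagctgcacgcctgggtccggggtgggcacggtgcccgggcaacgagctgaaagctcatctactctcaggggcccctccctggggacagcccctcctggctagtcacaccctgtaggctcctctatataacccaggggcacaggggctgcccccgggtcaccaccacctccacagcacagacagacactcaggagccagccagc
The Acta1 window held 1 CArG box, 2 E-boxes and 1 TATA box, and none of its matches overlapped. The Tnnt1 window held 2 E-boxes and 1 TATA box, and the Ckm window 1 E-box. A promoter was found for 27 of the 35 genes. A CArG box occurred in 4 of these 27 genes (Acta1, Ldb3, Myh4 and Myl3) and in 1.63% of all 32851 promoter windows. For the MEF2 box the figures were 4 of 27 genes and 3.19% of windows, for the E-box 23 of 27 and 72.3%, and for TATAAA 7 of 27 and 13.6%. These matches describe the letters in the windows, and several genes have more than 1 window. The counts by gene are therefore not like the shares by window. Of the 34 windows of these genes, 5 held a CArG box, 4 a MEF2 box, 28 an E-box and 7 TATAAA.

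The troponins, which place the calcium switch on the thin filament, included the next brightest members after Acta1, Tnnt1 and Tnnc2, and ran from 67.8 to 512.5 in intensity over 6 genes. Tnnt1, the slow-fibre subunit that binds tropomyosin, had 376, 463 and 408 in AR3 transgenic mice 1, 2 and 3, against 323, 399 and 513 in wild-type mice 1, 2 and 3. The genotypes overlapped, and the log2 change was 0.03 ± 0.16 (SE, n = 3 each, adjusted p 0.96). Tnnc2, the fast-fibre subunit that binds calcium, had 242, 249.7 and 271 in AR3 transgenic mice, against 232, 365 and 329 in wild-type mice. Wild-type mice 2 and 3 were the highest and wild-type mouse 1 the lowest, and the log2 change was -0.24 ± 0.16 (adjusted p 0.59). Its slow-fibre counterpart Tnnc1 had 108.3, 93.9 and 88.5 in AR3 transgenic mice, against 81.4, 78.5 and 111.5 in wild-type mice. These values overlapped as well and lay just above the background scale. Tnni2, the inhibitory subunit of fast fibres, had 126.0, 111.5 and 102.7 in AR3 transgenic mice, against 95.9, 124.5 and 147.4 in wild-type mice. Its slow counterpart Tnni1 had 71.4, 84.6 and 83.3 in AR3 transgenic mice, against 67.8, 86.0 and 100.1 in wild-type mice. In both, wild-type mouse 1 was the lowest and wild-type mouse 3 the highest of all 6. Tnnt3, the fast-fibre subunit paired with Tnnt1, had 100.6, 102.9 and 91.1 in AR3 transgenic mice, against 103.3, 121.5 and 149.5 in wild-type mice. All 3 AR3 transgenic values of Tnnt3 lay below all 3 wild-type values, with an adjusted p of 0.41.

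The myosin heavy chains, the motors of the thick filament, ran from 54.5 to 101.8 in intensity over 4 genes and 6 mice, and none exceeded the background scale on all 6 arrays. Myh4, the motor of the fastest fibres, had 65.4, 55.8 and 60.0 in AR3 transgenic mice, against 73.1, 78.4 and 80.8 in wild-type mice. The genotypes did not overlap, and the adjusted p of 0.196 was the smallest among the 34 genes not called. Myh1, another fast motor, had 54.6, 62.1 and 55.7 in AR3 transgenic mice, against 68.2, 68.8 and 72.4 in wild-type mice, with no overlap and an adjusted p of 0.29. Myh7, the slow-fibre motor also used by heart muscle, had 79.8, 88.2 and 84.9 in AR3 transgenic mice, against 62.2, 83.5 and 101.8 in wild-type mice. Wild-type mice were both its lowest and its highest, and the adjusted p was 0.94. Myh2, the motor of the fast oxidative fibres, had 54.5, 74.8 and 64.7 in AR3 transgenic mice, against 54.7, 83.2 and 85.2 in wild-type mice, with overlap and an adjusted p of 0.76. The light chains Mylpf, Myl1, Myl2 and Myl3 ran from 13.0 to 86.0. By mean, Myl1, Myl2 and Myl3 were dimmer than every heavy chain, while Mylpf (82.1) was brighter than Myh1 (63.6), Myh2 (69.5) and Myh4 (68.9). Myl1, a fast-fibre light chain and the dimmest member, had 21.8, 13.0 and 19.0 in AR3 transgenic mice, against 30.5, 22.0 and 35.1 in wild-type mice. Its log2 change of -0.41 ± 0.14 was the largest in size among the genes not called, although all of these values lie far below the background scale, and its adjusted p was 0.30. Of the myosin-binding proteins, Mybpc1 was also lower without overlap (-0.26 ± 0.10, adjusted p 0.35) and Mybpc2 overlapped. The giant proteins Ttn, the spring of the sarcomere, and Neb, which runs along the thin filament, lay between 37.8 and 84.0.

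Among the Z-disc genes, Myot alone separated the genotypes without overlap. It was the only one of the 35 genes past an adjusted p of 0.05, a threshold at which 1.18% of all genes were called higher and 0.456% lower. Myot encodes myotilin, a Z-disc protein that binds alpha-actinin and filamin. Its intensity was 203.7, 209.6 and 234.4 in AR3 transgenic mice 1, 2 and 3, against 43.0, 45.8 and 49.0 in wild-type mice 1, 2 and 3. The AR3 transgenic mice lay above the background scale on every array and the wild-type mice below it on every array. The means were 215.9 ± 16.3 in AR3 transgenic and 45.9 ± 3.02 in wild-type prostates (SD, n = 3 each). With each wild-type value raised to the background scale of its own array, Myot was at least 2.76-fold higher in AR3 transgenic prostates. On the log2(intensity + 16) scale it rose by 1.90 ± 0.08 (SE), with a 95% interval from 1.71 to 2.10 and an adjusted p of 2.3e-05 in limma. Since the wild-type values are at background, this change depends on the added constant, and was 2.21 with a constant of 1 and 1.35 with 64. The alpha-actinins Actn2 and Actn3 did not pass the test, with log2 changes of -0.02 ± 0.10 and 0.04 ± 0.10 (adjusted p 0.97 and 0.90). Actn2 had 58.6, 76.9 and 66.1 in AR3 transgenic mice, against 70.6, 61.0 and 72.3 in wild-type mice. Actn3, the alpha-actinin of fast fibres, had 114.2, 123.3 and 125.9 in AR3 transgenic mice, against 112.0, 133.3 and 106.8 in wild-type mice. The other Z-disc genes, Tcap, Myoz1 and Ldb3, overlapped between genotypes, with adjusted p from 0.82 to 0.995.

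Myot lies on chromosome 18 of the RefSeq annotation, next to a run of Spink genes, which encode Kazal-type protease inhibitors. Its neighbours were examined after its values were seen. Of the 8 measured genes on either side of Myot in annotation order, 2 of 16 were called, both higher and both on the Spink side. On that side, Spink5 (log2 change 0.72, adjusted p 0.14) and Gm10267 (0.95, adjusted p 0.070) were higher without overlap but not called. All values of Gm10267 lay below the background scale. On the far side, Ythdc2 was higher (0.18, adjusted p 0.42) and Pggt1b lower (-0.13, adjusted p 0.51), without overlap and not called. Spink11, separated from Myot by 1 measured gene, had 1041, 725 and 982 in AR3 transgenic mice, against 26.3, 32.8 and 48.3 in wild-type mice, with an adjusted p of 2.3e-05. Spinkl, next to it, had 905, 474 and 639 in AR3 transgenic mice, against 40.6, 15.2 and 18.4 in wild-type mice, with an adjusted p of 2.8e-04. Myot, Spink11 and Spinkl thus lay at background in every wild-type mouse and above it in every AR3 transgenic mouse. Between Spink11 and Myot, Npy6r, a receptor gene of the neuropeptide Y family, had 44.1, 47.8 and 62.4 in AR3 transgenic mice, against 37.6, 53.9 and 30.3 in wild-type mice, with overlap and an adjusted p of 0.58. On the far side, the nearest measured genes Dcp2 and Mcc had log2 changes of 0.05 ± 0.12 and 0.01 ± 0.09, with adjusted p of 0.92 and 0.97. Of 471 measured genes of that chromosome, 11 (2.34%) were called higher, beside 1.18% of all genes. These 11 include Myot, for which the chromosome was picked, and Spink11 and Spinkl. That choice raises the share, so it says little about the chromosome as a whole. What Myot and its neighbours share was not tested.

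**Figure D3:**
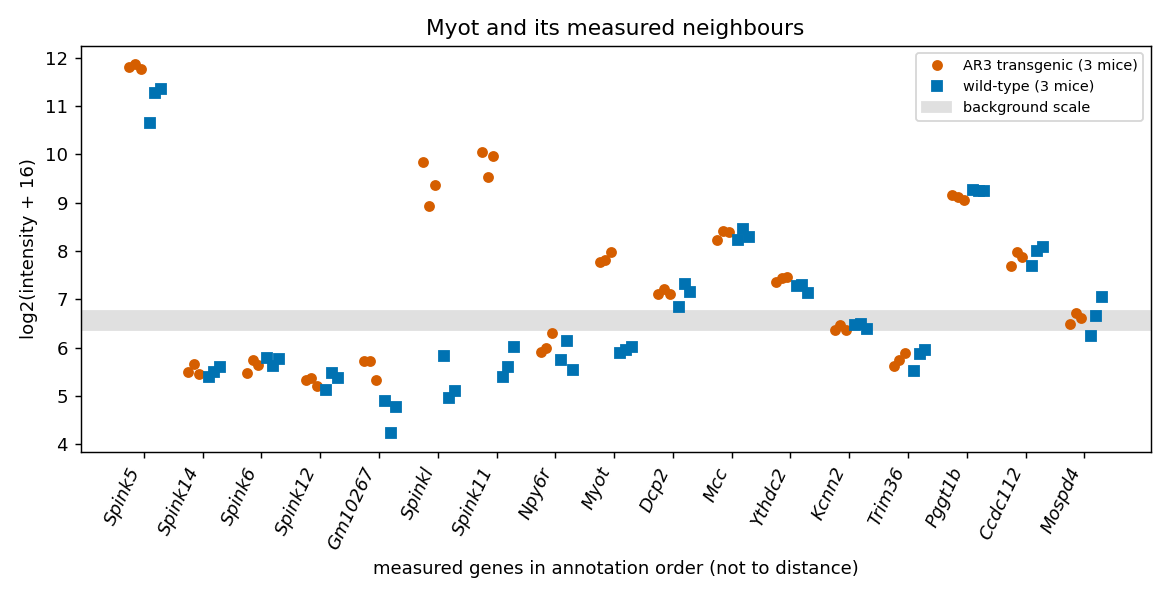
Myot and the 8 measured genes on either side are plotted in annotation order along the horizontal axis, which does not show distance, with log2(intensity + 16) on the vertical axis, circles for AR3 transgenic mice and squares for wild-type mice. The grey band is the background scale. Spinkl, Spink11 and Myot have circles above the band and squares below it, and the 8 genes to the right of Myot have circles and squares at similar heights.

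Of the 6 genes of calcium release and excitation, 4 exceeded the background scale on no array and 2, Atp2a1 and Trdn, on all 6. The 4 dim genes were Ryr1, the calcium-release channel, Cacna1s, the voltage sensor that opens it, Casq1, the calcium store protein, and Pvalb, the calcium buffer of fast fibres. Atp2a1, the calcium pump of fast fibres, had 107.1, 95.3 and 92.5 in AR3 transgenic mice, against 103.0, 125.3 and 116.6 in wild-type mice, with overlap. Trdn, which anchors calsequestrin at the release channel, had 129.6, 110.5 and 103.8 in AR3 transgenic mice, against 76.3, 114.6 and 108.8 in wild-type mice, and its log2 change was 0.18 ± 0.15 (adjusted p 0.67). It was the only member with more than 1 probe set, and its 18 other probe sets had means from 5.45 to 41.6. One of those 18, at a mean of 10.6, was called lower (log2 change -0.39, adjusted p 0.044), opposite in sign to the brightest one, but its values lay far below the background scale on every array.

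The energy and oxygen genes all exceeded the background scale on all 6 arrays. Ckm, the creatine kinase of muscle and one of its most abundant transcripts, had 128.3, 119.8 and 132.8 in AR3 transgenic mice, against 127.2, 148.6 and 139.7 in wild-type mice. Wild-type mice 2 and 3 were the highest, the genotypes overlapped, and the log2 change was -0.11 ± 0.08 (95% interval -0.31 to 0.08, adjusted p 0.66). Mb, the oxygen store myoglobin, had 189.7, 186.2 and 127.5 in AR3 transgenic mice, against 140.6, 134.8 and 147.1 in wild-type mice. AR3 transgenic mice 1 and 2 were the highest and AR3 transgenic mouse 3 the lowest of all 6, and the adjusted p was 0.61. Eno3, the muscle enolase of glycolysis, had 201.0, 198.0 and 220.2 in AR3 transgenic mice, against 183.4, 204.9 and 190.7 in wild-type mice, with overlap and an adjusted p of 0.71. Pygm, the glycogen phosphorylase of muscle, had 120.1, 130.4 and 143.8 in AR3 transgenic mice, against 110.5, 140.4 and 119.3 in wild-type mice. It too overlapped, with an adjusted p of 0.81.

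Over the whole list, 1 of 35 genes was called higher by limma (Myot), where 1.18% of all genes were, and 0 were called lower, where 0.456% of all genes were. At an unadjusted p under 0.05, 5 genes were lower, Myh1, Myh4, Myl1, Tnnt3 and Mybpc1, where 5.27% of all genes were lower by that rule and 6.91% higher. That count depended on single mice: it was 9 without wild-type mouse 1, 3 without wild-type mouse 2, 1 without wild-type mouse 3 and 2 without any 1 of the AR3 transgenic mice. The count over all 28944 probe sets at that p, in either direction, moved as well. It was 3548 with all mice, and 4764, 2876 and 4049 without wild-type mouse 1, 2 or 3. Without AR3 transgenic mouse 1, 2 or 3 it was 3024, 2417 and 2282. The same 5 were those whose genotypes did not overlap in the downward direction, which 8.61% of all genes showed, while 10.5% of all genes separated upward, as Myot did. Of these 5, all but Mybpc1 are on the list of 12 fast-fibre genes, and none of the 6 slow-fibre genes was among them. The difference between fast and slow genes was not tested, and all of the 5 but Tnnt3 had values below the upper end of the background scale in every AR3 transgenic mouse. Of the 35 log2 changes, 16 were positive and 19 negative, with a median of -0.02 over the list, 0.01 over all genes and 0.01 over all probe sets. No 95% interval of a gene not called reached beyond -0.74 or 0.57.

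**Figure D4:**
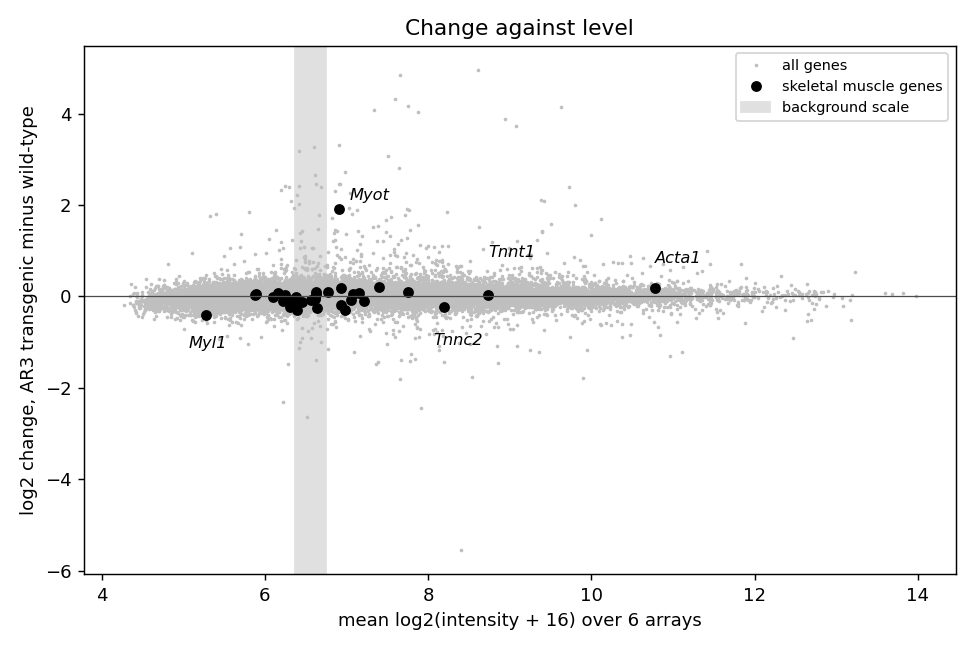
The plot of change against level gives the log2 change, AR3 transgenic minus wild-type, on the vertical axis and the mean log2(intensity + 16) over 6 arrays on the horizontal axis, with all 19938 genes in grey and the 35 skeletal muscle genes in black. The members crowd around 0 at low levels, Acta1 lies at the bright end near 0, and Myot lies apart at 1.90.

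The spread between mice was modest. The 35 genes spanned a median of 0.43 on the log2 scale over the 6 mice, beside 0.36 for all genes, and only Myot spanned 1 or more. The mean log2(intensity + 16) of the 35 genes was 6.81, 6.82 and 6.80 in AR3 transgenic mice 1, 2 and 3, against 6.65, 6.85 and 6.90 in wild-type mice 1, 2 and 3. The AR3 transgenic mice lay inside the range of the wild-type mice, which held both the lowest and the highest value. The olfactory receptor probe sets had mean log2 levels of 5.53, 5.49 and 5.48 in AR3 transgenic mice, against 5.44, 5.53 and 5.62 in wild-type mice. Wild-type mouse 1 was thus the lowest and wild-type mouse 3 the highest on both measures, and also for the median of all probe sets. Wild-type mouse 1 was the lowest of 6 for 17 of the 35 genes (48.6%), beside 29.0% of olfactory receptor probe sets, and wild-type mouse 3 the highest for 19 (54.3%), beside 33.9%. The part of array background in these differences between mice was not tested. Summed without Acta1, the intensities of the other 34 genes came to 3452, 3523 and 3454 in AR3 transgenic mice, against 2951, 3583 and 3783 in wild-type mice. Both this sum and the mean of the 35 genes include Myot, which was 203.7 to 234.4 in AR3 transgenic and 43.0 to 49.0 in wild-type mice. For the 33 members other than Acta1 and Myot, log2 levels minus each gene's mean of 6 were taken. Their medians were -0.036, 0.003 and -0.031 in AR3 transgenic mice, against -0.111, 0.081 and 0.145 in wild-type mice.

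**Figure D5:**
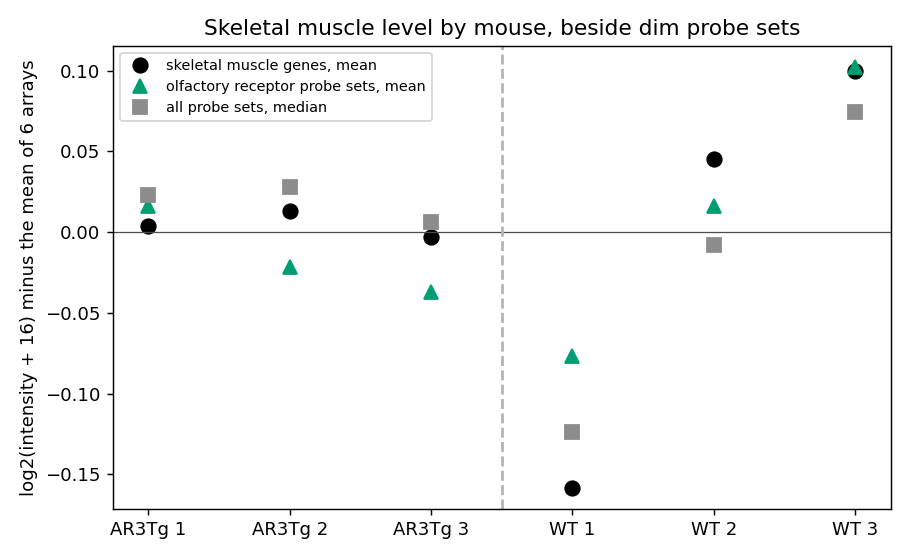
Each point is a log2(intensity + 16) level minus its mean over the 6 arrays, for the 35 skeletal muscle genes (circles), the 1035 olfactory receptor probe sets (triangles) and the median of all probe sets (squares), by mouse, with AR3 transgenic mice left of the dashed line. On all 3 measures wild-type mouse 1 is lowest and wild-type mouse 3 highest.

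Muscle genes outside the list were counted in the same way. Of 55 measured adult striated muscle genes, 0 were called in limma, 3 were higher and 1 lower at an unadjusted p under 0.05, 23 exceeded the background scale on all arrays and 19 on none. The brightest by mean intensity were the tropomyosins Tpm3 (2355) and Tpm2 (1045) and the intermediate filament gene Des (626), all of which smooth muscle also uses. The other bright genes of that list, named after their values were seen, included Tmod4, the tropomodulin of skeletal muscle (569), Nrap (295), Ampd1, the AMP deaminase of muscle (244), the junctophilin Jph1 (236) and the calcium-channel subunit Cacng1 (170). Nrap had 299, 353 and 331 in AR3 transgenic mice, against 252, 297 and 239 in wild-type mice, higher without overlap (adjusted p 0.31). Fbxo32, a muscle ubiquitin ligase subunit, had 337, 412 and 443 in AR3 transgenic mice, against 600.0, 608 and 498 in wild-type mice, lower without overlap (adjusted p 0.14). Of 16 genes of developing muscle, 9 heart muscle genes and 10 genes of the nerve-muscle junction, 0 were called, and 10, 2 and 2 exceeded the scale on all arrays. The 12 smooth muscle genes all exceeded it on all arrays, with 0 called, 0 at an unadjusted p under 0.05 and a summed intensity of 16977 to 22418 in AR3 transgenic mice and 17872 to 21993 in wild-type mice. Another adjoining tissue, the seminal vesicle, behaved otherwise in most of its genes: the 8 genes spanned a median of 5.15 on the log2 scale over the 6 mice. The list was split, since Svs1 and Svs6 spanned only 0.52 and 0.76, and Svs3a 2.04. Of these 8, Spinkl, the neighbour of Myot described above, was called higher (4.08 ± 0.28, adjusted p 2.8e-04) and Svs3a lower (-1.43 ± 0.22, adjusted p 0.019), and Pate4 was higher without overlap (3.88 ± 1.09, adjusted p 0.20). Svs5 had 345, 15.5 and 2861 in AR3 transgenic mice, against 1020, 12.9 and 17.9 in wild-type mice. Svs5 was thus above the background scale in AR3 transgenic mice 1 and 3 and wild-type mouse 1, while the skeletal muscle mean was highest in wild-type mouse 3, where Svs5 was below that scale. Of the other cell types, the endothelial cadherin Cdh5 was called higher among 5 endothelial genes (0.93 ± 0.12, adjusted p 0.010), and Sbp and Spink1 lower among 9 measured genes of the secretory epithelium. At an unadjusted p under 0.05 in limma, 5 of these 9 were lower, beside 5.27% of all genes. Lower without overlap were 6 of the 9, beside 8.61% of all genes. Of the 5 endothelial genes, 2 were higher at that p, beside 6.91% of all genes. Fibroblast and tendon (9 genes), adipocyte (10), nerve and glia (5), urothelium (6) and erythrocyte (2) genes held 0 calls, with 3 fibroblast genes and 1 adipocyte gene higher and 1 urothelial gene lower at an unadjusted p under 0.05.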

How the data were processed

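RNA of dissected prostates was labelled with biotin and hybridised to Affymetrix arrays, per the labels' protocols. The deposited table holds 1 intensity per probe set and array on a linear scale. How probe sets were summarised and normalized is not given here, and the deposited intensities were taken as already normalized. Of 35512 probe sets, 6568 with identifiers below the gene-level range were taken as controls and left out, so 28944 were tested. The platform annotation gave 21789 of these 1 symbol, 1621 several and 5534 none here.

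Values were tested as log2(intensity + 16) with limma 3.58.1 in R 4.3.3 (lmFit and eBayes, two-sided, no covariate, Benjamini-Hochberg over all 28944 probe sets, threshold 0.05), a procedure also tested on simulated data. Changes are AR3 transgenic minus wild-type. With 3 mice per genotype an exact test of 1 gene cannot go below p = 0.1, so none was used. The number of arrays limits the precision. The array median lay between 94.5 and 110.8, and 425 probe sets were called, 305 higher and 120 lower.

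The members and the comparison lists were chosen with earlier results of these data known. By rule, values per mouse are given for the 12 brightest members, for Myh4, Myh7, Tnnc1, Tnnc2, Actn2 and Actn3 and for called members. For the other lists only some genes are given, by mean or by mouse, and not always the brightest. Actg2, for example, was dimmer than the smooth muscle genes Tagln, Myh11 and Tpm1. Other genes are named for their group or because they were singled out after their values were seen. The alternatives were other normalizations, added constants, a filter on dim probe sets, other variance models, array weights, the mouse number as a block, averaged probe sets and leaving out single mice.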

Additional observations from a re-analysis of the deposited data

How the results depend on the processing

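In all 14 alternatives run for it, Myot was called higher, with a log2 change between 1.35 and 2.21 and an adjusted p of at most 6.4e-04, and in those 14 and with averaged probe sets no other member was called in either direction. The median log2 change of the 35 genes ran from -0.10 without wild-type replicate 1 to 0.04 without wild-type replicate 3. The count of members lower at an unadjusted p under 0.05 was 5 as reported, 9 without wild-type replicate 1 and 1 without wild-type replicate 3. Over all 28944 probe sets, in either direction, the counts at that p were 3548, 4764 and 4049 in the same order. Direction turned, with no call on either side, for Tnnt1 (-0.0054 after median centring), for Pygm (-0.018), Actn3 (-0.057) and Actn2 (0.069) with array weights, and when single mice were left out for Tnnt1 (-0.12 to 0.20), Myh7 (-0.11 to 0.18), Actn2 (-0.099 to 0.0595), Actn3 (-0.013 to 0.13) and Tnni2 (-0.23 to 0.042). The cause was not tested. Probe sets called in all numbered 425 as reported. The alternatives gave 678 under trended, robust variances, 1202 with array weights and 250 with a replicate block by mouse number, and 234 to 519 without single mice (248 and 234 without AR3 transgenic replicate 2 or 3, 254 without wild-type replicate 2). Same-numbered mice did not deviate together (correlations -0.04, 0.05 and -0.16 for numbers 1, 2 and 3), so the block stands only as an alternative, and Myot kept its call under it. The number of members above background on all arrays was 13, against 20 with the 90th and 4 with the 99th percentile of the olfactory receptor probe sets, both chosen after seeing the data, and 13 or 14 without single mice. The shares of all genes were 57.1%, 65.5% and 40.5% at the 95th, 90th and 99th percentile, and 57.3% to 58.5% without single mice. The filter on dim probe sets left 20 of the 35 genes. Levels near background limit what can be said of the myosins and most calcium genes.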

Other observations

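Genes on none of the lists whose level spanned at least 1 on the log2 scale were compared with the mean of the 35 skeletal muscle genes. Predicted genes, genes with Rik symbols, olfactory receptors and small RNA genes were left out by symbol, which left 371. Those most like the mean over the 6 mice were Dcun1d3 (Pearson r 0.98), Trank1, Vwa2, Nos3, Ppfia2, Il20rb, Kdm4d, Drc3, Zswim2 and Dok1 (r 0.93). These correlations over 6 mice describe a shared order, with wild-type mouse 1 low, and 0 of the 10 genes were called by limma. Wild-type mouse 1 was also the lowest for the olfactory receptor probe sets and for the median of all probe sets. The part of array background in this likeness was not tested. Dcun1d3, a regulator of cullin neddylation, had 304, 323 and 295 in AR3 transgenic mice, against 203, 363 and 457 in wild-type mice.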
